A study of Arabidopsis thaliana with 18 samples.

Results

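A set of 52 genes, out of 37336 gene rows measured in Arabidopsis rosettes, met a rule that asks for lower transcript levels in plants carrying NahG than in their controls, library by library, in both the accession Ler and the accession C24. For 50 of them the levels were lower in both accessions, and for 2 in Ler only. NahG encodes a bacterial salicylate hydroxylase, an enzyme that degrades the plant hormone salicylic acid. The rule worked on CPM, a gene's reads as a share of all gene reads times 1e6, scaled by depth alone. A gene was taken if its mean in Ler was at least 1 CPM, if its highest Ler NahG library stood at most at 0.5 times its lowest Ler library, and if the highest of the C24 NahG libraries stood at most at 0.5 times the lowest C24B library. These limits were met by 67 genes. Of these, 11 named marker genes of the salicylic acid response and 4 genes of the WRKY and CRK families (WRKY54, WRKY70, CRK5 and ARCK1, which carries a CRK synonym) were left out, and the other 52 are described here. The genes were thus chosen by the measured levels in the NahG plants and their controls, and their falls are given as a description, for which no test counts as support.

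For 2 of the 52, the C24 side of the rule was met only because the gene was hardly read there. AT4G21630, of the subtilase family, had 0 reads in every C24 library of either stage, and AT5G49180, of the invertase and pectin methylesterase inhibitor superfamily, had 1 read in 1 C24 library, 1 read in 1 C24B library and 0 in the C24 NahG plants. Both had lower values with NahG in Ler, and no fall could be seen in C24.

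RNA was extracted from whole rosettes at 21 days after sowing, from plants kept at 21 °C under 16 h light and 8 h dark cycles and moved from plates to soil at day 14. A first sequencing stage held wild-type C24, wild-type Ler (Ler-0 in the labels), the wild-type hybrid C24 x Ler, and Ler with the NahG transgene, with 3 libraries each. A later stage held wild-type C24 again, called C24B, and the independent C24 lines NahG 2 and NahG 3, with 2 libraries each. Every library came from a pool of 6 to 10 plants, so p-values measure the spread between pools. The promoter that drives NahG, and whether Ler NahG is 1 line, are not given in the sources used here. Gene reads per library ranged from 22446656 to 25706088 over the 12 of the first stage and from 28132721 to 32465711 over the 6 of the later one. The stages were scaled separately, and fold changes were taken within a stage only. As these are bulk samples, fewer cells of a type and less RNA per cell cannot be told apart.

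Salicylic acid accumulates in leaves after infection, and it also sets the basal level of defence in plants that have met no pathogen. Its receptors of the NPR family act with TGA transcription factors at TGACG sequences, while WRKY factors bind W-boxes, and both kinds of site are common in promoters of defence genes. Many targets encode receptors at the cell surface, signalling proteins and regulators of cell death. ACD6 and DMR6 also act back on the hormone, ACD6 by promoting its accumulation and DMR6 by hydroxylating it.

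The sequences just before the annotated starts of 6 of the genes are shown because each carries a W-box or a TGA core. They are also shown because these genes stood at the extremes of the comparisons described further on. AT2G27660 and AT1G13470 were among the largest falls in C24 NahG plants, RLP38 was the only gene of the set called higher in the hybrid than in C24, and AT1G19960, AT5G03350 and ARD3 hold the TGA core on both strands at 1 place. Each window has 250 bases, 5′ to 3′ along the gene's own strand, from RefSeq build TAIR10.1, the Columbia reference and not the accessions sequenced here. Capitals mark the motifs searched, on either strand. The W-box was written as TTGACC or as the variant TTGACT. The TGA core was TGACG. The motif of the factors SARD1 and CBP60G was GAAATTT, which none of the 6 windows printed holds. The windows are chr2:11800929-11801178, minus strand, for AT2G27660, chr1:4621586-4621835, minus strand, for AT1G13470, chr3:8229620-8229869, minus strand, for RLP38, chr1:6927486-6927735, plus strand, for AT1G19960, chr5:816671-816920, minus strand, for AT5G03350 and chr2:11233389-11233638, minus strand, for ARD3.
AT2G27660: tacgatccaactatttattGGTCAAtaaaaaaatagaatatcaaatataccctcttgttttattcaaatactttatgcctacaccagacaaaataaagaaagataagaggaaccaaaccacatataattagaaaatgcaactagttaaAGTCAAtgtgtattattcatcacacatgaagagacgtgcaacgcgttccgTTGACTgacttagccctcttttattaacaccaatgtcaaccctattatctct
AT1G13470: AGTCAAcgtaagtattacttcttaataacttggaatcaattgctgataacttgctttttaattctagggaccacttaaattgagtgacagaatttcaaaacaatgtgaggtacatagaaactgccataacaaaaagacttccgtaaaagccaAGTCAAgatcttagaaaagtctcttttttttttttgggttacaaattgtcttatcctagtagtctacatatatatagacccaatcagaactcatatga
RLP38: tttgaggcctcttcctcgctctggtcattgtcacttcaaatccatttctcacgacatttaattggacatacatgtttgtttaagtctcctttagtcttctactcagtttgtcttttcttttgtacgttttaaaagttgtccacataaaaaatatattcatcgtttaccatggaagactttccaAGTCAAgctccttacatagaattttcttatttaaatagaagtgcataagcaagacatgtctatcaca
AT1G19960: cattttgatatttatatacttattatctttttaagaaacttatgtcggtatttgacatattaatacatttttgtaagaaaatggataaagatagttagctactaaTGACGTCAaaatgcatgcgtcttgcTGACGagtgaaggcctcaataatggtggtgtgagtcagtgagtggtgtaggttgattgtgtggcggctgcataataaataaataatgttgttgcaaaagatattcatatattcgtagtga
AT5G03350: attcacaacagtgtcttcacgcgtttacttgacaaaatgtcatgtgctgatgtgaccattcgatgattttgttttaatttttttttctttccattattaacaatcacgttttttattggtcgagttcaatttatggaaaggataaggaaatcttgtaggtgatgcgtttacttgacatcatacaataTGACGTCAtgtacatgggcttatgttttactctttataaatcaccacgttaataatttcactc
ARD3: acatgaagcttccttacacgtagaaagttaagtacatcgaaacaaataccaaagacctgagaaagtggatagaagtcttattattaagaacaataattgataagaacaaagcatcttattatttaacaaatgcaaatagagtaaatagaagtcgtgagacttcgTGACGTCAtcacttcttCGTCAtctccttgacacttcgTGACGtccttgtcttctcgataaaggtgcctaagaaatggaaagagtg

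The window of AT2G27660 held 3 W-boxes and that of AT1G13470 held 2. A window was read for 51 of the 52 genes, the pseudogene AT4G14610 being left out. A W-box was present in 26 of the 51 windows (51.0%), against 28.0% of the windows of the 19588 protein-coding genes tested in the first stage, and 2 or more W-boxes were present in 11 (21.6%, against 5.92%). The TGA core was present in 15 windows (29.4%, against 19.4%) and GAAATTT in 6 (11.8%, against 12.7%). The palindrome TGACGTCA, which is the TGA core read on both strands, was searched after it was seen in windows of the set. It was present in 3 of the 51 (5.88%, against 0.562%), AT1G19960, AT5G03350 and ARD3. As the palindrome was taken from these same windows, nothing is read from that share. Part of the window lay inside a neighbouring gene for 12 of the 51, none of them printed. A match is a run of letters, and binding was not measured.

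In wild-type rosettes the set was far more abundant in C24 than in Ler. Reads of the 52 genes made up 0.930 to 0.998% of all gene reads in C24, 0.0864 to 0.162% in Ler and 0.381 to 0.545% in C24 x Ler. They made up 0.594 to 0.709% in C24B, and in every NahG library at most 0.0236%, with 0.0100 to 0.0115% in Ler NahG, 0.0189 to 0.0236% in C24 NahG 2 and 0.0192 to 0.0214% in C24 NahG 3. Per kilobase of exon, the highest level in C24 belonged to AT5G42530, with 5378 CPM, followed by AT2G41090 with 1080, AT1G19960 with 254, WAK1 with 196 and ACD6 with 155. In the text that follows, levels are CPM scaled for depth and library composition by TMM.

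**Figure D1:**
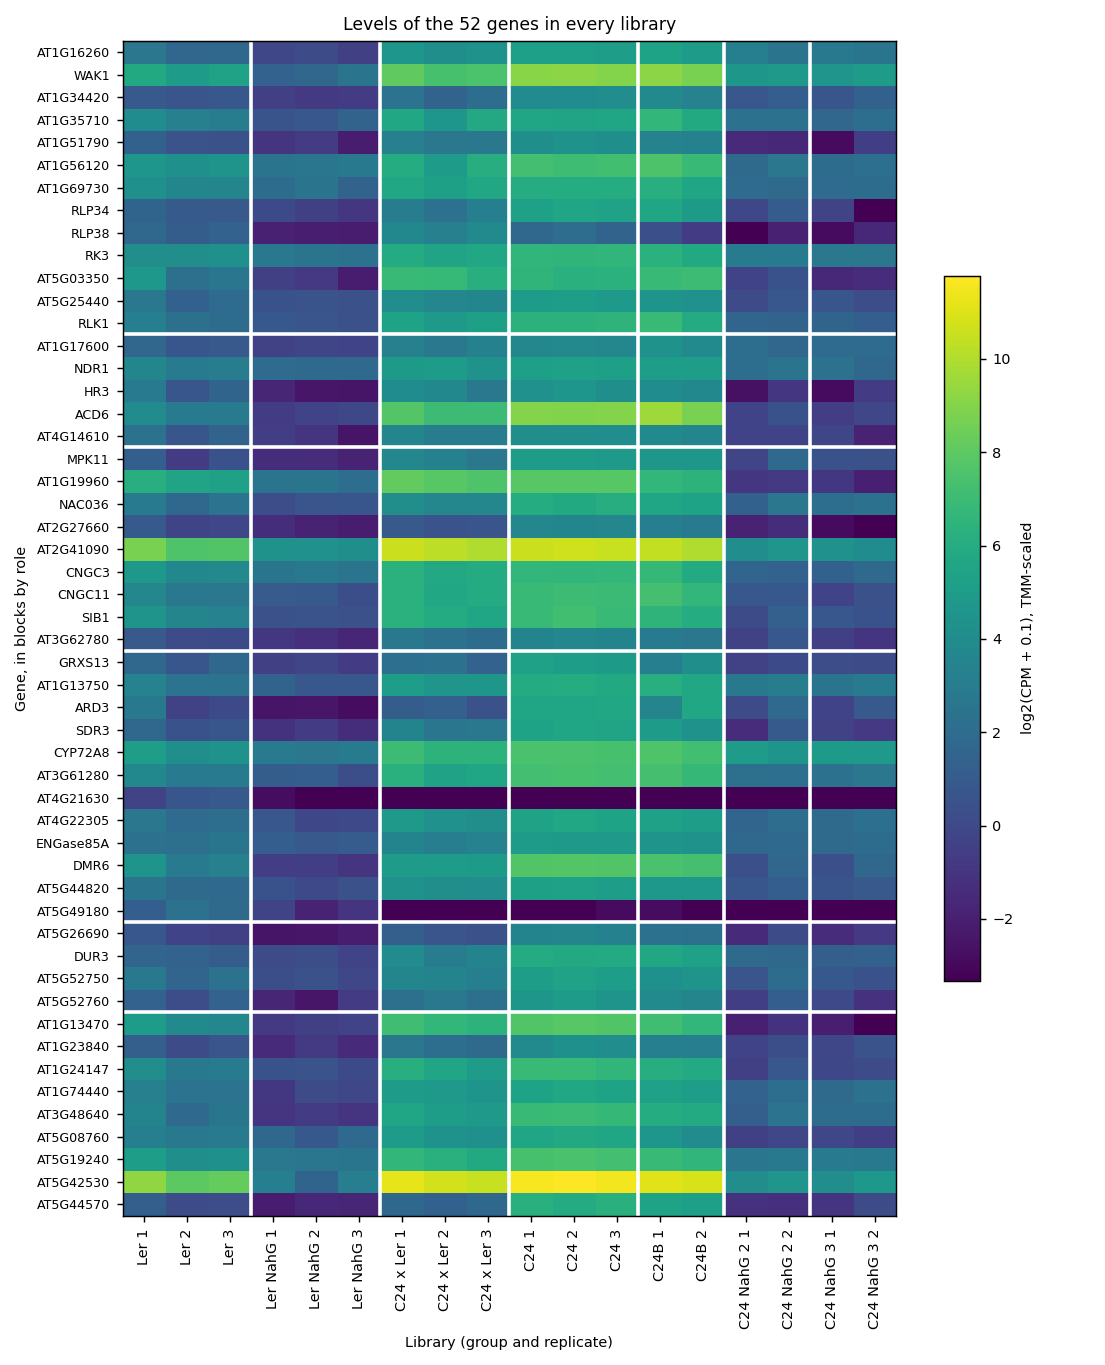
Levels of all 52 genes (rows, in blocks by role) in each of the 18 libraries (columns), as log2 of TMM-scaled CPM plus 0.1. The NahG columns are dark for nearly every gene, the C24 and C24B columns are bright, and AT4G21630 and AT5G49180 are the rows that are dark in C24.

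The genes fell into 6 groups by annotated role. There were 13 surface receptors, receptor kinases or lectins, 5 genes of cell death and intracellular immunity, 9 of signalling and transcription, 12 enzymes or enzyme inhibitors, 4 of transport and metal binding, and 9 encoding uncharacterized or membrane proteins. In Ler NahG the median log2 fold change of the 52 against Ler was −2.34, with a range from −6.13 to −1.34. In the C24 NahG lines the median of the 50 genes fitted was −4.12 against C24B, with a range from −9.84 to −2.24. The fit called 49 of 52 lower in Ler NahG, where 0.502% of all genes were called lower and 0.0886% higher, and 49 of 50 lower in the C24 lines, where 10.3% of all genes were lower and 2.85% higher. The rule fixed these counts and nothing is read from them.

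**Figure D2:**
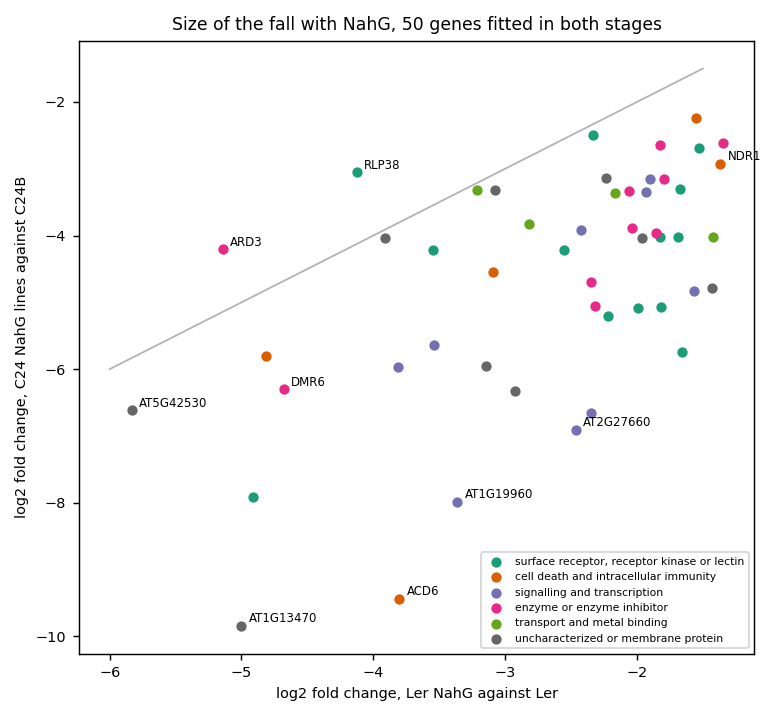
Log2 fold change with NahG in Ler (horizontal axis) and in C24, mean of both lines (vertical axis), for the 50 genes fitted in both stages, coloured by role. The line marks equal falls, and most points, such as ACD6 at −3.80 and −9.44, lie below it, while RLP38 and ARD3 lie above it.

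The gene sets that met either side of the rule were of unequal size. The Ler side was met by 72 genes, and 67 of them (93.1%) also met the C24 side. The C24 side was met by 623 of the 18129 genes with at least 1 CPM in Ler (3.44%), and the 67 were 10.8% of those 623. Both the 67 and the 623 take in genes hardly read in C24, such as AT4G21630 and AT5G49180, which met that side without a fall. The 2 sides also compared different numbers of libraries, so their sizes are not like for like. Only 5 genes met the Ler side alone. AT2G32170, a methyltransferase superfamily gene, was one of them, with 23.1 to 28.5 CPM in Ler and 2.36 to 3.37 in Ler NahG by depth alone, while C24B stood at 27.8 and 28.7 CPM and the C24 NahG libraries at 32.4 to 33.4. The others were THI2.1, GILT, AT1G35612 and AT5G23510. By depth alone, C24B stood at 0.284 and 0.740 CPM for THI2.1, 0 and 0.225 for GILT and 0 for AT1G35612. These levels were too low for a fall to be seen in C24. AT5G23510 stood at 16.5 and 16.4 CPM in C24B and 7.18 to 8.32 in the C24 NahG libraries, lower but outside the limit.

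Surface receptors formed the largest group. WAK1 encodes a wall-associated kinase that binds pectin in the cell wall. It stood at 57.8, 33.0 and 40.8 CPM in Ler and 2.64, 3.02 and 5.57 in Ler NahG. In the later stage it stood at 568 and 434 CPM in C24B and 25.3, 28.3, 23.2 and 30.8 in the C24 NahG libraries. The groups with and without NahG lay apart in both accessions. In the first-stage C24 libraries WAK1 stood at 541, 577 and 509.8 CPM and in C24 x Ler at 274, 164 and 184. Every hybrid library lay below every C24 library and above every Ler library. The log2 difference of hybrid and C24 was −1.39 (SE 0.26, adjusted p = 0.0019) in edgeR's quasi-likelihood test with Benjamini-Hochberg adjustment over 20325 genes, the test behind every adjusted p of a single gene here.

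None of the 6 libraries in the comparison of the hybrid with C24 took part in choosing the genes. The rule did ask for higher values in C24B, also wild-type C24, than with NahG, so the genes were chosen partly on the C24 genotype. The fit also shares its estimate of spread with the Ler and Ler NahG libraries that the rule used. The comparisons with Ler share the Ler libraries with the rule, which asked for high values there. Of the 13 surface genes, 9 were lower in C24 x Ler than in C24, 1 was higher, and all 13 were higher in C24 x Ler than in Ler. Over all genes, 19.3% were called lower and 17.2% higher in the hybrid than in C24, and 15.8% were called higher and 14.4% lower than in Ler. RK3, a receptor kinase, stood at 97.9, 94.2 and 99.05 CPM in C24, 61.6, 45.8 and 51.5 in the hybrid and 17.8, 17.4 and 19.3 in Ler. These 3 groups did not overlap, and the hybrid differed from C24 by −0.87 (SE 0.11, adjusted p = 0.00012) and from Ler by 1.54 (SE 0.11, adjusted p = 3e-06) on the log2 scale. RLK1, a receptor-like kinase, stood at 27.1 to 42.7 CPM in the hybrid, between 82.6 to 90.1 in C24 and 3.97 to 9.12 in Ler.

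Among the leucine-rich repeat kinases, AT1G56120 stood at 152, 136 and 150.1 CPM in C24, 64.7, 33.0 and 68.4 in the hybrid and 24.3, 18.9 and 22.2 in Ler. Its hybrid level was 37.9% of C24. AT1G34420 reached 25.2% of C24, with a log2 difference of −1.99 (SE 0.19, adjusted p = 2.1e-05), and AT1G51790 reached 38.2%, with −1.39 (SE 0.27, adjusted p = 0.0024). AT1G35710 had 50.6, 24.5 and 55.2 CPM in the hybrid around 49.4, 45.9 and 49.9 in C24. Its hybrid libraries overlapped C24 and lay above Ler at 16.4, 9.47 and 7.97, and the difference from C24 did not pass the test (adjusted p = 0.73). The wall-associated kinase family genes AT1G16260 and AT1G69730 had hybrid levels of 59.04 and 73.3% of C24, the first called lower (adjusted p = 0.015) and the second not (adjusted p = 0.13). AT5G25440, of the protein kinase superfamily, was lower in the hybrid by a log2 difference of −1.19 (SE 0.24, adjusted p = 0.0027).

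The receptor-like proteins RLP34 and RLP38 carry a leucine-rich repeat ectodomain without a kinase, and their hybrid levels stood differently to those of the parents. RLP34 had 39.95, 46.4 and 41.9 CPM in C24, 8.32, 5.02 and 9.26 in C24 x Ler and 2.86, 1.82 and 1.75 in Ler. Its hybrid level lay between the parents, at 17.6% of the C24 mean and 3.52 times the Ler mean. RLP38 had 13.1, 9.55 and 14.0 CPM in C24 x Ler, 3.198, 4.15 and 2.69 in C24 and 3.17, 2.05 and 2.54 in Ler. All 3 hybrid libraries of RLP38 lay above all 6 parental libraries, and the parents overlapped. The hybrid was 3.65-fold higher than C24, with a log2 difference of 1.87 (SE 0.21, adjusted p = 6e-05), and 4.72-fold higher than Ler, with 2.24 (SE 0.21, adjusted p = 2.4e-05). The share of all genes called higher than both parents was 3.9%. RLP38 was low in the later stage, with 1.21 and 0.542 CPM in C24B, and stood at 0, 0.161, 0.0343 and 0.215 in the C24 NahG libraries.

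AT5G03350 encodes a legume lectin domain protein known to be induced by salicylic acid. It stood at 26.2, 4.66 and 6.03 CPM in Ler, 0.618, 0.458 and 0.127 in Ler NahG, 120.0 and 130.3 in C24B and 0.737, 1.32, 0.2398 and 0.277 in the C24 NahG libraries. Ler replicate 1 stood well above the other Ler libraries. In the hybrid it reached 121, 111 and 74.4 CPM against 95.5, 78.3 and 80.8 in C24. The hybrid overlapped C24 and lay above Ler, with a log2 difference from C24 of 0.26 (SE 0.47, adjusted p = 0.71) and from Ler of 3.06 (SE 0.52, adjusted p = 0.0013).

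Of the 5 genes of cell death and intracellular immunity, 1, ACD6, was called lower in the hybrid than in C24 and all 5 were called higher than in Ler. Over all genes 19.3% were called lower than C24 and 15.8% higher than Ler. The count of 1 lay near the share of all genes, and nothing is read from it. Their median log2 difference from C24 was −0.80. ACD6 encodes an ankyrin repeat membrane protein that raises salicylic acid and cell death when overactive, and its alleles differ among wild accessions. It stood at 15.7, 7.303 and 7.299 CPM in Ler and 0.535, 0.733 and 0.886 in Ler NahG. In C24B it stood at 763 and 420.3 CPM and in the C24 NahG libraries at 0.737, 1.29, 0.582 and 0.8302. The NahG libraries of both accessions lay between 0.535 and 1.29 CPM, a range set across stages that were scaled separately, while their controls differed widely. In the first stage C24 had 507, 491 and 504 CPM and C24 x Ler 211, 131 and 131, without overlap among hybrid, C24 and Ler. The hybrid was 3.18-fold lower than C24, with a log2 difference of −1.67 (SE 0.27, adjusted p = 0.00067), and 15.6-fold higher than Ler, with 3.97 (SE 0.30, adjusted p = 3.7e-06). C24 was 49.7-fold higher than Ler, with 5.63 (SE 0.32, adjusted p = 1e-07).

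NDR1, a membrane-anchored protein needed by several intracellular immune receptors, stood at 36.8, 39.3 and 36.8 CPM in C24, 29.4, 31.1 and 21.2 in the hybrid and 12.3, 7.18 and 8.25 in Ler. Its hybrid libraries lay below C24 and above Ler, and the log2 difference from C24 of −0.47 (SE 0.18, adjusted p = 0.058) missed the threshold. HR3, a homolog of the resistance protein RPW8, had 16.2, 13.2 and 6.48 CPM in the hybrid and 20.04, 24.5 and 17.97 in C24, without overlap (adjusted p = 0.16). In Ler HR3 had 7.02, 1.58 and 2.82 CPM, which the hybrid libraries overlapped. AT1G17600, of the TIR-NBS-LRR class of intracellular receptors, reached 66.4% of C24 (adjusted p = 0.052). AT4G14610, annotated as a transcribed pseudogene of a CC-NBS-LRR receptor, reached 55.4% (adjusted p = 0.081).

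In signalling and transcription, 7 of 9 genes were lower in C24 x Ler than in C24 (19.3% of all genes) and 8 of 9 were higher than in Ler (15.8%). AT2G41090, an EF-hand calcium-binding protein, had the most reads among them. It stood at 425, 199.6 and 206 CPM in Ler and 21.6, 19.6 and 17.9 in Ler NahG, and at 1370 and 1004 in C24B and 16.9, 23.2, 19.5 and 16.3 in the C24 NahG libraries. Across both stages the NahG libraries lay between 16.3 and 23.2 CPM. The hybrid had 1536, 1229 and 996 CPM and C24 1508, 1685 and 1451, which overlapped, with a log2 difference of −0.30 (SE 0.26, adjusted p = 0.4). AT1G19960, annotated as a transcription factor, also overlapped C24, with 282, 235 and 196 CPM in the hybrid, 233, 236 and 232 in C24 and 75.05, 44.5 and 40.5 in Ler. The log2 difference of hybrid and C24 was 0.03 (SE 0.21, adjusted p = 0.94). In C24B it stood at 101 and 86.7 CPM and in the C24 NahG libraries at 0.430, 0.483, 0.445 and 0.154, one of the largest falls of the set.

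CNGC3 and CNGC11 are adjacent genes of cyclic nucleotide-gated cation channels, and CNGC11 is known from a fusion with a neighbouring channel gene that triggers cell death. As close copies their reads may be shared out with error. CNGC11 had 12.6, 6.47 and 6.15 CPM in Ler, 1.94, 1.83 and 1.14 in Ler NahG, 161 and 101 in C24B and 1.63, 1.71, 0.719 and 1.26 in the C24 NahG libraries. It had 79.1, 52.5 and 62.8 CPM in the hybrid against 121, 132 and 125 in C24, lower without overlap by a log2 difference of −0.96 (SE 0.23, adjusted p = 0.0077). For CNGC3 the difference was −0.61 (SE 0.22, adjusted p = 0.045), with 55.8 to 79.3 CPM in the hybrid and 98.3 to 104 in C24.

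MPK11, a MAP kinase activated in pattern-triggered immunity, stood at 32.1, 31.2 and 27.9 CPM in C24, 12.6, 10.04 and 6.16 in the hybrid and 2.19, 0.553 and 1.31 in Ler. SIB1, a sigma factor binding protein that partners the factor WRKY33, stood at 46.6 to 80.6 CPM in the hybrid, at 49.3% of C24 on the mean. NAC036, a NAC transcription factor, reached 22.4% of C24, with a log2 difference of −2.16 (SE 0.21, adjusted p = 2.5e-05). AT2G27660, of the cysteine and histidine-rich C1 domain family, lay lower, with 1.74, 1.36 and 1.504 CPM in the hybrid, 12.6, 11.9 and 12.6 in C24 and 1.83, 0.7501 and 0.833 in Ler. Its hybrid libraries overlapped Ler and not C24, and the log2 difference from C24 was −3.01 (SE 0.28, adjusted p = 1.7e-05). AT3G62780, a calcium-dependent lipid-binding family gene, reached 44.5% of C24 (adjusted p = 0.0029).

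Of the 12 enzymes and inhibitors, 10 were lower in C24 x Ler than in C24 (19.3% of all genes), with a median of −1.54 over the group. Against Ler, 8 were higher (15.8% of all genes) and 2 lower (14.4%). The 2 lower were AT4G21630 and AT5G49180, which had 0 reads in the hybrid, and nothing is read from their count. DMR6, the salicylic acid 5-hydroxylase, had 207, 215 and 204 CPM in C24, 31.03, 31.5 and 29.5 in the hybrid and 22.9, 7.74 and 9.64 in Ler. The hybrid libraries lay close together, far below C24 and above Ler, at 14.7% of the C24 mean, with a log2 difference from C24 of −2.76 (SE 0.30, adjusted p = 4.8e-05) and from Ler of 1.20 (SE 0.30, adjusted p = 0.011). The call against Ler was lost in a fit of the compared groups alone (adjusted p = 0.058). With NahG, DMR6 stood at 0.577, 0.595 and 0.3799 CPM in Ler and 1.198, 3.03, 1.199 and 3.01 in C24, from 171 and 163 in C24B.

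ARD3, an acireductone dioxygenase of the methionine salvage cycle, had 49.3, 47.8 and 53.3 CPM in C24, 2.09, 2.34 and 1.22 in the hybrid and 6.71, 0.671 and 0.952 in Ler. Its hybrid level was 3.76% of C24, the lowest share of the set, with a log2 difference of −4.74 (SE 0.62, adjusted p = 0.00018). Replicates of ARD3 differed widely elsewhere, as Ler replicate 1 stood far above the other Ler libraries and C24B had 11.4 and 50.5 CPM. GRXS13, a glutaredoxin, had 4.54, 5.12 and 2.54 CPM in the hybrid, overlapping 3.26, 1.58 and 3.17 in Ler, against 39.1, 35.1 and 29.4 in C24. The log2 difference from C24 was −3.09 (SE 0.27, adjusted p = 1.1e-05) and that from Ler 0.61 (SE 0.29, adjusted p = 0.14). SDR3, a short-chain dehydrogenase and reductase, reached 16.98% of C24 and was above Ler without overlap.

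ENGase85A, which cleaves sugar chains from N-glycoproteins, had 30.7, 29.2 and 28.4 CPM in C24, 11.03, 8.68 and 10.4 in the hybrid and 4.83, 4.58 and 5.83 in Ler. Its groups did not overlap and the log2 difference from C24 was −1.55 (SE 0.12, adjusted p = 5.1e-06). CYP72A8, a cytochrome P450, had the most reads of the enzymes in the hybrid, with 129, 87.3 and 88.05 CPM against 173, 176 and 167 in C24. Its difference from C24, −0.76 (SE 0.21, adjusted p = 0.015), lost its call without C24 x Ler replicate 2 or replicate 3, with adjusted p up to 0.06. AT3G61280, related to the O-glucosyltransferase rumi, had 75.8, 41.4 and 48.1 CPM against 155, 166 and 153 in C24 (adjusted p = 0.001). The purple acid phosphatase AT1G13750, the hydrolase AT4G22305 and the sugar transferase AT5G44820 had hybrid levels of 45.8, 48.3 and 48.8% of C24, all called lower.

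AT4G21630 and AT5G49180 were read in Ler and not in the hybrid. AT4G21630 had 0.7599, 1.54 and 1.78 CPM in Ler, 0.0412, 0 and 0 in Ler NahG and 0 reads in C24 x Ler, and AT5G49180 had 2.15, 4.78 and 3.69 CPM in Ler, 0.741, 0.183 and 0.3799 in Ler NahG and 0 reads in C24 x Ler. Against a floor of 3 counts over the hybrid libraries, Ler was at least 28.4-fold higher for the first and at least 73.5-fold higher for the second. The flower meristem genes LFY and AP1 also differed between these groups, and LFY was at 0 in every hybrid library. Their summed level was 15.3 to 24.5 CPM in Ler, 17.1 to 21.98 in Ler NahG, 0.0487 to 0.102 in C24 x Ler and 0.0853 to 1.10 in C24. The part of flower tissue in these values was not tested.

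All 4 genes of transport and metal binding were lower in C24 x Ler than in C24 (19.3% of all genes). DUR3, the urea transporter, had 61.5, 57.9 and 60.05 CPM in C24, 15.4, 8.19 and 11.3 in the hybrid and 2.905, 2.65 and 2.102 in Ler, without overlap. The log2 difference was −2.37 (SE 0.19, adjusted p = 6.2e-06) from C24 and 2.19 (SE 0.21, adjusted p = 2.8e-05) from Ler. AT5G52750 and AT5G52760 are neighbouring genes of the heavy metal-associated family, and their hybrid levels were 29.6 and 19.9% of C24. AT5G26690, of the same family, had 2.297, 1.46 and 1.27 CPM in the hybrid against 11.2, 11.9 and 9.78 in C24 and 1.61, 0.711 and 0.635 in Ler, overlapping Ler.

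Of the 9 uncharacterized or membrane proteins, 8 were lower in C24 x Ler than in C24 (19.3% of all genes) and all 9 were higher than in Ler (15.8%). AT5G42530, with the most reads of the set, stood at 619, 256 and 298 CPM in Ler and 8.94, 2.84 and 8.69 in Ler NahG. It stood at 2243 and 1849 CPM in C24B and 17.1, 23.6, 16.6 and 26.2 in the C24 NahG libraries. In C24 it had 3144, 3520 and 2984 CPM and in the hybrid 2343, 1743 and 1443. The hybrid lay below C24 and above Ler in every library, but the log2 difference from C24, −0.80 (SE 0.38, adjusted p = 0.12), did not pass the test.

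AT1G13470, of the DUF1262 family, had the largest fall with NahG in C24. It stood at 143 and 101 CPM in C24B and 0.154, 0.354, 0.137 and 0 in the C24 NahG libraries, and at 32.2, 15.1 and 12.6 in Ler and 0.494, 0.641 and 0.718 in Ler NahG. The hybrid, with 145, 102 and 85.2 CPM, lay between C24 at 205, 229.8 and 201 and Ler. Its difference from C24, −0.94 (SE 0.29, adjusted p = 0.024), lost its call without any 1 C24 library, without C24 x Ler replicate 2 and without C24 x Ler replicate 3, with adjusted p up to 0.084.

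AT5G44570 had 77.5, 61.7 and 76.5 CPM in C24, 3.17, 2.44 and 3.15 in the hybrid and 2.28, 1.03 and 1.11 in Ler. The hybrid lay at 4.06% of C24 and above every Ler library. The log2 difference from C24 was −4.62 (SE 0.23, adjusted p = 1.5e-07), that of C24 and Ler was 5.62 (SE 0.24, adjusted p = 1.1e-08), and that of the hybrid and Ler, 1.00 (SE 0.26, adjusted p = 0.014), lost its call without Ler replicate 2 or 3, without C24 x Ler replicate 1 and in a fit of the compared groups alone, with adjusted p up to 0.083. AT5G19240, a GPI-anchored membrane glycoprotein, had 101, 77.3 and 57.2 CPM in the hybrid against 167, 172 and 151 in C24. The other 5 genes of the group, AT1G24147, AT3G48640, AT1G23840, AT1G74440 and AT5G08760, had hybrid levels from 28.4% (AT1G23840) to 59.2% (AT1G74440) of C24, all called lower.

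**Figure D3:**
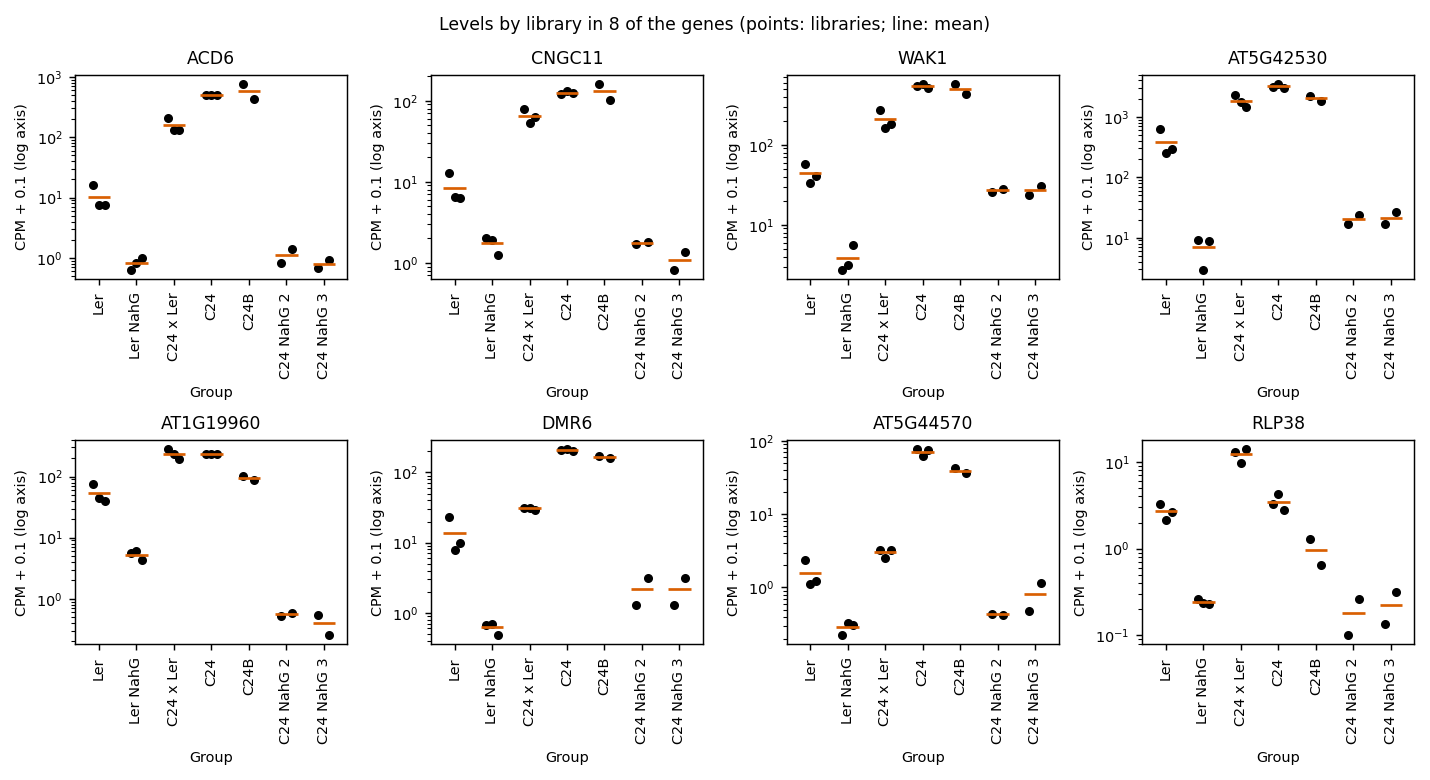
TMM-scaled CPM plus 0.1 on a log axis in every library (points) and the group mean (line) for 8 of the genes in the 7 groups. The NahG points lie below their controls in every panel, and the hybrid points lie between the parents for ACD6, CNGC11, WAK1, AT5G42530, DMR6 and AT5G44570, with C24 for AT1G19960, and above both parents for RLP38.

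Over the whole set, 39 of 52 genes were called lower in C24 x Ler than in C24 and 1 higher, against 19.3% and 17.2% of all genes, with a median log2 difference of −1.15 against −0.04 over all genes. Leaving out 1 library at a time gave 34 to 44 lower. Against Ler, 46 were called higher and 2 lower, against 15.8% and 14.4% of all genes, with a median of 1.94 (1.98 over the 50 genes read in C24) against 0.01, and 44 to 49 were higher on leaving out 1 library. C24 itself was called higher than Ler for 49 genes and lower for 2, against 22.6% and 19.8% of all genes. RLP38 was the gene without a call between the parents. Both calls together placed 35 of 52 genes below C24 and above Ler, a pattern of 5.14% of all genes and of 22.7% of the 4602 genes called higher in C24 than in Ler.

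Of the rest, 10 (19.2% of the set) were higher than Ler and not called against C24, a pattern of 6.78% of all genes. Among them were AT1G19960, AT5G03350, AT2G41090, AT1G35710, NDR1 and AT5G42530. Another 4 (7.69%), GRXS13, ARD3, AT2G27660 and AT5G26690, were lower than C24 and not called against Ler, a pattern of 9.75% of all genes. Of the 4602 genes called higher in C24 than in Ler, 23.4% had the first pattern and 32.9% the second, both larger shares than in the set. By the libraries alone, 40 of 52 genes had every hybrid library strictly between all C24 libraries above and all Ler libraries below, which held for 7.95% of all genes. In 45 of 52 every hybrid library lay below every C24 library (30.2% of all genes), and in 45 every hybrid library lay above every Ler library (19.9%). In 50 of 52 every hybrid library lay above every Ler NahG library (20.2% of all genes), but the rule chose the genes for low Ler NahG values and nothing is read from this count. For the 50 genes read in C24, the hybrid mean was 45.1% of the C24 mean at the median, from 3.76% for ARD3 to 365% for RLP38, and 3.95 times the Ler mean.

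**Figure D4:**
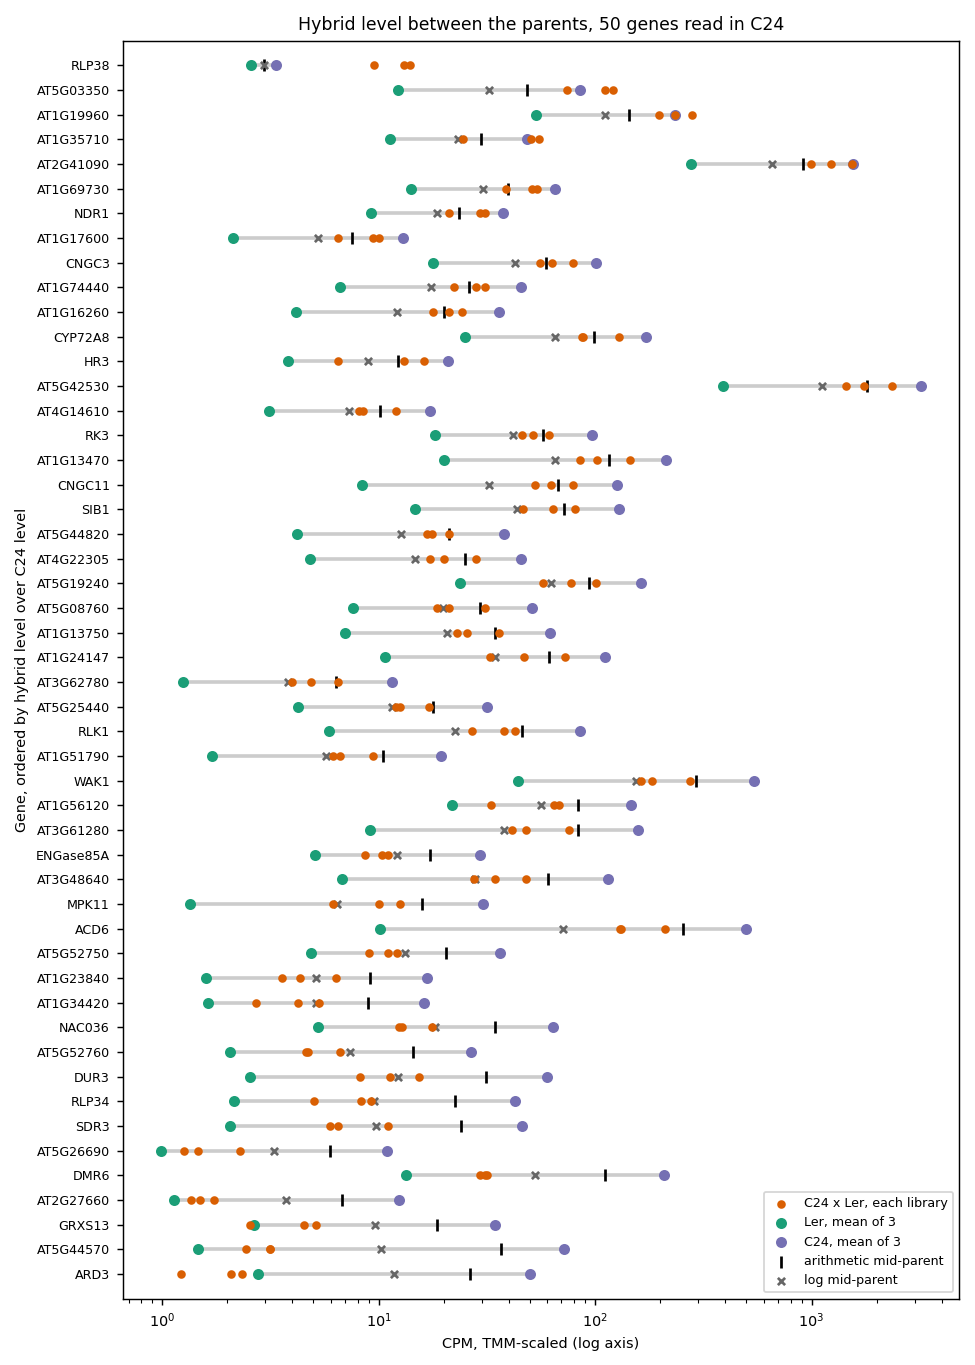
Means of Ler and C24 and the 3 C24 x Ler libraries for the 50 genes read in C24, as TMM-scaled CPM on a log axis, ordered by the hybrid level over C24. A bar marks the arithmetic and a cross the log mid-parent. RLP38 at the top lies above both parents, most genes lie between them, and ARD3, AT5G44570 and GRXS13 at the bottom lie near Ler.

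Where the hybrid stood against the average of its parents depended on the scale of that average. Against the mean of the parents' log levels, 19 genes were called higher, 36.5% of the set against 15.5% of all genes. Another 6 were called lower, 11.5% of the set and 11.5% of all genes, so nothing is read from that count. The median log2 difference was 0.43. The 6 lower were GRXS13, ARD3, AT2G27660, DMR6, AT5G26690 and AT5G44570. DMR6 lost this call without any 1 C24 library, without any 1 C24 x Ler library, without Ler NahG replicate 1 and in a fit of the compared groups alone, with adjusted p up to 0.12. RLP38 had the largest rise over it, 2.05 (SE 0.17, adjusted p = 1.7e-05), followed by AT5G03350 with 1.66, ACD6 with 1.15 and AT1G19960 with 1.09. The call of AT5G03350 was lost without C24 x Ler replicate 1 (adjusted p = 0.057). Against the arithmetic mean, every hybrid library lay above all pairings of parental libraries for 3 genes, AT1G19960, RLP38 and AT5G03350 (15.2% of all genes), and below them for 24 (22.6%). The median ratio of the hybrid to the arithmetic mid-parent was 0.805 and to the geometric one 1.35. The count of 19 also rested on single libraries, as it was 4 without C24 x Ler replicate 1 and 30 without Ler replicate 1, and 9 with scaling by depth alone, where 12 were lower.

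The same library of a group was often the highest for many genes of the set. Ler replicate 1 was the highest Ler library for 48 of the 52 genes, against 38.7% of all genes, C24 x Ler replicate 1 was the highest hybrid library for 40 of 50 read there (30.9%), and C24B replicate 1 the highest C24B library for 46 of 51 read there (48.5%). Without C24 x Ler replicate 1 there were 39 genes lower than C24 and 44 higher than Ler, and without Ler replicate 1 there were 44 and 49.

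Other measures also differed between the hybrid and its parents. The summed level of 7 shoot apex genes was 0.613 to 2.54 CPM in C24 x Ler, 40.8 to 44.2 in C24 and 22.4 to 116 in Ler, while each of the 7 was read in all 3 groups. Within C24B it was 3.00 and 45.6 CPM, with STM, a shoot meristem gene, at 0.467 and 21.9. The summed level of 5 rosette leaf genes was 55740 to 60870 CPM in the hybrid, 32170 to 36780 in C24 and 34290 to 53660 in Ler, and none of them was at 0 in any group. SAG12, a gene of senescing leaves, was read in C24B at 0.856 and 4.399 CPM, and was at 0 in C24, C24 x Ler and both C24 NahG lines. The TMM factors were 0.867 to 0.924 in the hybrid, 1.04 to 1.08 in C24 and 0.964 to 1.11 in Ler, and scaling by depth alone gave a median over all genes of −0.28 against C24 and −0.23 against Ler. With that scaling 45 genes of the set were lower than C24 and 46 higher than Ler. The part of tissue composition in the hybrid levels and in the falls with NahG was not tested.

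Between the independent C24 lines NahG 3 and NahG 2, edgeR called 0 of 50 genes in either direction, and 0.0% of the 20112 genes tested. At an unadjusted p under 0.05 there were 4 of the 50 and 590 of all genes. DESeq2 called 4 genes higher and 9 lower over all, 1 of them in the set, AT5G03350, with a log2 difference of −1.98 (adjusted p = 0.02 by DESeq2), and edgeR without a filter on low counts called the same gene at −1.97 (adjusted p = 0.05). Its levels were 0.737 and 1.32 CPM in NahG 2 and 0.2398 and 0.277 in NahG 3. The rule bounded only the highest of the 4 libraries. In simulated data for this comparison the test recovered 60.95% of genes changed by a log2 of 1 and 94.7% of those changed by a log2 of 2 (19888 genes). The changed genes were simulated at their mean over all libraries of the stage, C24B included, and that mean was above 1 CPM. Genes of the set lay far below such a mean in the NahG lines, so these shares do not apply to them. AT2G27660, for one, differed by a log2 of −3.56 without a call. The absence of calls therefore does not show that the lines were alike.

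Lists of genes from known pathways, drawn up with earlier results of these data known, show where related genes stood. Over all genes, 19.3% were called lower in C24 x Ler than in C24, and 15.8% were higher and 14.4% lower than in Ler. In the C24 NahG lines 10.3% of all genes were called lower. The counts of every list below are to be read beside these shares. Of 16 genes of salicylic acid synthesis and signalling, ACD6 among them, 14 were lower in C24 x Ler than in C24 and 0 higher, with a median log2 difference of −1.27 against −0.04 over all genes, and 12 were higher than in Ler. ICS1, which makes isochorismate on the way to salicylic acid, had −1.97 (adjusted p = 9.3e-07) against C24 and 0.53 (adjusted p = 0.008) against Ler. The central regulator PAD4 had −1.61 (adjusted p = 2.8e-07) and 1.00 (adjusted p = 1.1e-05). With NahG in Ler, 1 of the 16 was called lower (0.502% of all genes), ACD6, with a median of −0.23 over the list. In the C24 lines 15 were lower, ACD6 among them, and EPS1 was higher (2.85% of all genes higher). The rule chose ACD6 on the libraries of both comparisons, so its calls are no support in either accession. Whether the lists responded differently in the accessions was not tested.

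Of 6 genes of salicylic acid turnover, DMR6 among them, 3 were lower in the hybrid than in C24, including DLO1, a salicylic acid hydroxylase related to DMR6, with −5.37 (adjusted p = 1.7e-06), and UGT76B1, a glucosyltransferase that acts on salicylic acid, with −4.92 (adjusted p = 0.0003), where 19.3% of all genes were lower. Against Ler, 2 of the 6 were higher, DMR6 and DLO1, and 2 were lower, UGT74F1, another salicylic acid glucosyltransferase, with −1.28 (adjusted p = 0.033), and BSMT1, a methyltransferase that acts on salicylic acid. The median of the 6 was −3.10 against C24 and −0.69 against Ler. Of 7 genes of systemic resistance 6 were tested and all 6 were lower than C24, with a median of −4.20, and 4 were higher than Ler. Among them FMO1, which makes the mobile signal N-hydroxypipecolic acid, had −5.14 (adjusted p = 0.00073) against C24. Of 12 endoplasmic reticulum chaperone genes 11 were tested and 10 were lower than C24, with a median of −0.57. Against Ler 2 were higher and 1 lower, where 15.8% and 14.4% of all genes were. With NahG, 0 were called in Ler and 1 was lower in the C24 lines, where 10.3% of all genes were lower. These chaperone counts against Ler and with NahG lay near the shares of all genes, and nothing is read from them. Of 13 genes of immune surface receptors and partners, WAK1 among them, 12 were tested, 9 were lower than C24, 10 were higher than Ler and 1, IOS1, a leucine-rich repeat kinase, was lower than Ler with −1.85 (adjusted p = 0.012). The flagellin receptor FLS2 was among those not called against C24, with −0.02 (adjusted p = 0.96), while SOBIR1, the partner kinase of receptor-like proteins, had −1.63 (adjusted p = 0.00045).

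Some genes lay close to the limits of the rule. By depth alone, the ratio of the highest Ler NahG to the lowest Ler library was 0.496 for AT5G52760, 0.493 for NDR1 and 0.492 for RLP34, just inside, and 0.510 for EXO70B2, 0.511 for CPK31 and 0.520 for XBAT34, just outside. On the C24 side the ratio was 0.406 for RLP38, 0.347 for ARD3 and 0.291 for AT1G17600, just inside, and 0.508 for AT5G23510 and 1.20 for AT2G32170, outside. The mean Ler level was 1.01 CPM for AT5G26690 and 1.17 for AT2G27660, just inside, and 0.880 for AT4G29050, a lectin domain kinase family gene, just outside.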

How the data were processed

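Whole-rosette RNA of 18 Arabidopsis libraries was sequenced, and the deposited tables hold raw read counts per gene, not normalized by the authors. The submitters' processing notes name STAR 2.5.3, DESeq2 and the build TAIR10. Strand handling, trimming and the annotation release are not given in the sources used here. The 5 rows that name no gene (1 of them a total) were left out of library sizes, and as shares of a library's reads the unmapped row came to 2.76 to 10.3%, multimapping to 1.37 to 2.42%, no feature to 0.256 to 0.523% and ambiguous to 3.47 to 4.85%. Names were matched for 37051 of 37336 gene rows.

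The genes and lists described were chosen with earlier results of these data known. For each sequencing stage, genes with low counts were removed by filterByExpr, counts were scaled by TMM, and edgeR's quasi-likelihood test with Benjamini-Hochberg adjustment was fitted over all groups of the stage (20325 and 20112 genes), with calls at an adjusted p under 0.05. Fold changes of 0-count groups were replaced by bounds at 3 counts. The genes to be given in detail were, by rule, the 12 with the highest mean CPM, the 5 largest falls with NahG in each accession, up to 5 called higher and 5 lower with the lowest adjusted p against C24 and up to 3 of each in other contrasts, those in the pathway lists and 3 on each side of the rule's limits, and further ones, chosen after their values were seen, describe each role. Alternatives were DESeq2, other scalings and filters, a replicate block, the compared groups alone and leaving out each library. In simulated data the test of hybrid against C24 recovered 86.7% of genes changed by a log2 of 1 and 96.1% by a log2 of 2 (19975 genes). Counts of replicates differed beyond sampling noise (smallest chi-square per degree of freedom 4.996). Tools were R 4.3.3, edgeR 4.0.16, limma 3.58.1, DESeq2 1.42.0, Python 3.11.15, numpy 2.4.6, pandas 2.3.3 and matplotlib 3.10.9.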

Additional observations from a re-analysis of the deposited data

How the results depend on the processing

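Of the counts of genes called, those of C24 x Ler against C24, of C24 x Ler against Ler and of C24 against Ler stayed within 1.5 times under every alternative run, with 34 to 44 lower than C24 and 44 to 49 higher than Ler on leaving out 1 library, and with 45 and 43 when the compared groups were fitted alone. Against the log mid-parent, 19 genes were higher and 6 lower, and scaling by depth alone gave 9 and 12, and the arithmetic mid-parent by libraries without overlap gave 3 and 24. Leaving out 1 library gave 4 to 30 higher and 4 to 7 lower, with 4 without C24 x Ler replicate 1 and 30 without Ler replicate 1; the cause was not tested. Between C24 NahG 3 and NahG 2, DESeq2 called 1 gene lower and edgeR without a filter on low counts 1, AT5G03350, against 0. The set itself had 21 genes under a wider gap between NahG and control libraries and 156 when group means replaced single libraries, which kept all 52, and TMM-scaled CPM kept 42. Replicate numbers were not taken as pairs in the main fit. The correlation of same-numbered libraries ran from −0.185 to 0.473 over 18 pairs in the first stage, against −0.392 to 0.367 over 36 pairs of unlike number. In the later stage it ran from 0.0241 to 0.128 over 6 pairs. With 2 libraries in each group there, pairs of unlike number mirror these values with the sign turned, so whether that stage was paired cannot be told. With a replicate block, 42 genes were lower and 1 higher than C24, 46 higher and 2 lower than Ler, 21 higher and 6 lower than the mid-parent, and 49 higher and 2 lower in C24 than in Ler. Among 1386 alternative values of 77 single-gene results, 1347 kept direction and call, 39 lost the call and 0 reversed. The C24 NahG libraries and the Ler NahG libraries held few reads of most of these genes, which limits the differences detectable among them.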
